A study of Mus musculus with 4 samples.

Results

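The subject is a set of 10 genes of prostaglandin, thromboxane and leukotriene metabolism among the 32285 genes measured in mouse liver cells: the cyclooxygenases Ptgs1 and Ptgs2, the terminal synthases Hpgds, Ptges and Tbxas1, the leukotriene genes Alox5 and Alox5ap, the prostaglandin E2 receptors Ptger2 and Ptger4, and the prostaglandin-degrading enzyme Hpgd. The members were found by gene symbol, and all 10 were present. The set was chosen by its enzymes and receptors with the KO against Control results of these libraries already known, so that contrast is given for the members as a description with no test. All 10 are annotated as protein-coding genes.

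Droplet single-cell RNA sequencing measured liver cells of 24-week-old male mice kept on a NASH diet, which leads to a fatty, inflamed and scarred liver, over 12 weeks. Livers had been stored in serum with DMSO, thawed and digested, and dead cells were removed on a column. All 4 libraries carried the floxed strain Cyr61fl/fl; 2 were labelled Control and 2 had the genotype Cyr61 KO. Cyr61 encodes a secreted matrix protein. The sources used do not give the cell type that lost it, the driver of the deletion, or whether a library came from 1 animal. No p-value therefore reaches beyond these libraries.

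Eicosanoids are lipid signals made from arachidonic acid that is cut out of membranes. Cyclooxygenases turn it into prostaglandin H2, which terminal synthases convert to prostaglandins D2, E2 or I2 or to thromboxane, while 5-lipoxygenase, helped by the membrane protein FLAP, turns it into leukotrienes. Prostaglandin E2 acts on cells through receptors such as EP2 and EP4, and 15-hydroxyprostaglandin dehydrogenase, made by Hpgd, starts its breakdown. In liver, macrophages, neutrophils and stromal cells are known sources of these lipids.

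The matrices held 4852 to 7253 barcodes and 8290677 to 20537236 UMIs (unique molecular identifiers, which count captured transcripts rather than reads) per library, and 4535 to 6742 cells were kept, with medians of 1203 to 2814 UMIs per cell. Of 24645 distinct barcodes, 74 occurred in more than 1 library. Cells were put into classes by 19 lists of marker genes, and the class names below stand for cells that carried those markers (T cell-like, monocyte-like and so on). Hepatocytes, the main cell of the liver, made up only 6, 8, 28 and 19 cells in Control 1, Control 2, KO 1 and KO 2, and the rest were mostly immune cells. The targeted gene Cyr61 (listed as Ccn1) had 184 and 149 UMIs over all barcodes of Control 1 and 2, against 0 and 12 in KO 1 and 2. The stromal or mesothelial class, gated on Dcn, collagen and mesothelial genes, held 272 and 57 Control cells and 0 KO cells, and C1q macrophages held 96 and 41 Control cells against 6 and 2 KO cells. Levels below are CPM, the UMIs of a gene scaled to a fixed total of UMIs of the class in a library, and class levels use libraries with at least 20 cells of the class.

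The promoters of 3 members are shown because their genes differed between neutrophils and classical monocytes: Hpgd was found in monocytes and stromal cells and had no UMI in neutrophils, while Ptgs2 and Alox5 were high in neutrophils. Each line gives the 250 bases before the transcription start from RefSeq (GRCm38.p6), 5′ to 3′ on the gene's strand, with capitals marking GAGGAA or its reverse complement, the purine-rich core bound by ETS factors such as PU.1.
Hpgd, chr8:56294302-56294551, plus strand: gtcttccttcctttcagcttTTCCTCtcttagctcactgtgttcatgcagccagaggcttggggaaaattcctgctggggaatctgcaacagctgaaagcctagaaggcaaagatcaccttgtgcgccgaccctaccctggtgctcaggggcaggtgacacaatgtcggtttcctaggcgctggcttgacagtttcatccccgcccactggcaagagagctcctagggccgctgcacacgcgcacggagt
Ptgs2, chr1:150099781-150100030, plus strand: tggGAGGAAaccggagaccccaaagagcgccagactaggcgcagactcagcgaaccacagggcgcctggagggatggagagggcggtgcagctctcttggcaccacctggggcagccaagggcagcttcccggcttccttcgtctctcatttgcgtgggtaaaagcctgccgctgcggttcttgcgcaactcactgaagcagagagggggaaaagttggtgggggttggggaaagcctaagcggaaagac
Alox5, chr6:116461179-116461428, minus strand: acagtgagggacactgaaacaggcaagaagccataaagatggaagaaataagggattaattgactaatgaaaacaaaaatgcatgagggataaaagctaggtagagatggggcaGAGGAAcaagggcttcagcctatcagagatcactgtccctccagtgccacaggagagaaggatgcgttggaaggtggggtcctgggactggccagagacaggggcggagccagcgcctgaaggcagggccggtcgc

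Promoters of 9 members were matched in the RefSeq table. GAGGAA, searched on both strands, lay in 7 of these 9 windows and in 23.3% of all 32841 promoter windows of that length. TGACGT, the core of the cyclic AMP response element, lay in none of the 9 and in 6.47% of all, and the TATA box letters TATAAA lay in the window of Tbxas1, next to a GAGGAA match with no shared base, and in 12.4% of all. In the 3 windows shown the match stood 230 to 225 bases before the start for Hpgd, 247 to 242 for Ptgs2 and 136 to 131 for Alox5. A match describes letters only, and the same core stands before a gene that neutrophils lacked and 2 that they expressed.

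Cyclooxygenases came from different cells. Ptgs1, which makes the constitutive COX-1 (GRCm38 chr2:36230426-36252272), was mainly a stromal transcript: 406 of its 527 UMIs over all kept cells (77.0%) lay in stromal or mesothelial cells, at 144 and 232 CPM in Control 1 and 2. C1q macrophages carried 83.3 and 116 CPM in the same 2 libraries, and classical monocytes 4.81, 14.8, 0 and 3.06 CPM in Control 1, Control 2, KO 1 and KO 2. Against classical monocytes, Ptgs1 was higher in stromal cells by 4.54 ± 0.42 on the log2 scale (SE; edgeR adjusted p = 8.26e-14) and in C1q macrophages by 3.66 ± 0.58 (edgeR adjusted p = 6.53e-06), in both Control libraries each time. These class contrasts come from 1 fit over all classes, added after the data were seen. So do those below for patrolling monocytes, dendritic cells, C1q macrophages and stromal cells. In it 52% of 9573 genes were called for stromal cells and 8.05% for C1q macrophages. The fit draws its spread from all classes of the same 4 libraries, as if they were independent. Its p-values therefore do not measure the spread between libraries alone. It also holds KO classical monocytes, while stromal cells, C1q macrophages and type 2 conventional dendritic cells entered from the 2 Control libraries alone.

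Ptgs2, which makes the inducible COX-2 (chr1:150100031-150108227), was a neutrophil transcript. Neutrophils, gated on S100a8, S100a9 and other granulocyte genes, held 370 of its 695 UMIs (53.2%), from 2.04% of the kept cells. Its level was 410, 356, 685 and 659 CPM in neutrophils of Control 1, Control 2, KO 1 and KO 2, and 43.3, 32.4, 43.2 and 15.3 CPM in classical monocytes, so every neutrophil value lay above every monocyte value. The difference was 4.06 ± 0.30 on the log2 scale (edgeR adjusted p = 1.15e-07, higher in 4 of 4 libraries), in a contrast that called 41.2% of 5807 genes. C1q macrophages held 74.1 and 116 CPM in Control and were above classical monocytes (log2 1.52 ± 0.45, edgeR adjusted p = 0.0226), a call that was lost without Control 2 (edgeR adjusted p = 0.301). Plasmacytoid dendritic cells held 0 Ptgs2 UMIs, at least 6.03-fold below the pooled classical monocytes when set at 3 UMIs over the class.

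**Figure D1:**
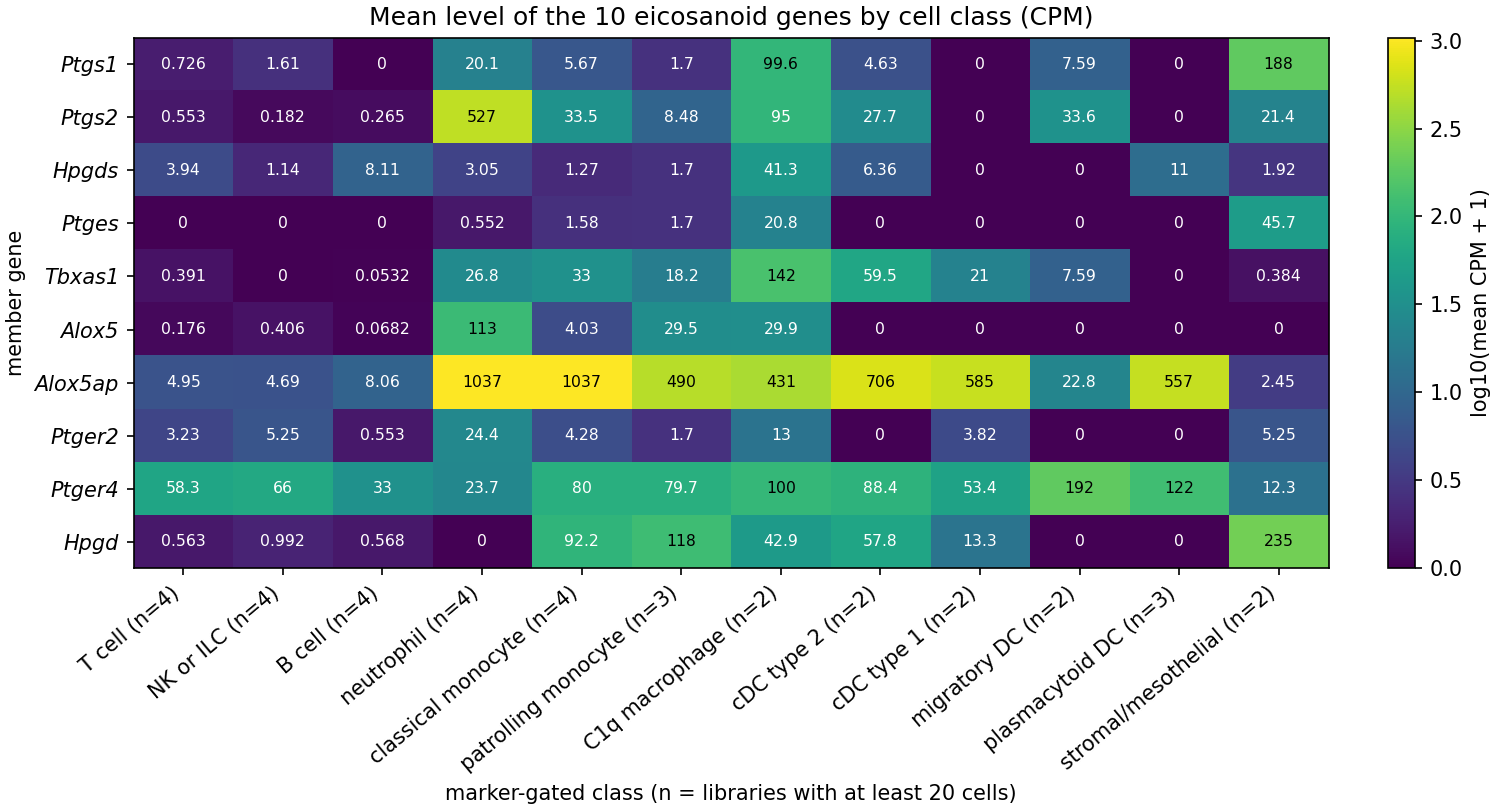
Mean level of the 10 member genes (rows) in 12 marker-gated classes (columns), printed as CPM and coloured by log10(CPM + 1), over the libraries (n) with at least 20 cells of the class. Ptgs2 and Alox5 have their highest means in neutrophils (527 and 113 CPM), and Ptgs1, Ptges and Hpgd in stromal or mesothelial cells.

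The terminal synthases were highest in stromal cells or C1q macrophages. Ptges, the inducible microsomal prostaglandin E synthase (chr2:30889471-30929863), had 126 UMIs in all, of which 105 (83.3%) were stromal; its level there was 52.2 and 39.3 CPM, against 2 UMIs in Control classical monocytes. In pooled Control counts the stromal level was 35.0 times the monocyte level (exact 95% interval 9.45 to 293, counting error only). The fit over all classes gave log2 4.61 ± 0.93 (edgeR adjusted p = 4.25e-05). T cells, B cells and natural killer or innate lymphoid cells held 0 Ptges UMIs in all 4 libraries. Tbxas1, thromboxane A synthase (chr6:38875404-39084585), stood at 144 and 140 CPM in Control C1q macrophages and at 31.3, 31.5, 24.9 and 44.3 CPM in classical monocytes. C1q macrophages were above classical monocytes by 1.93 ± 0.47 (edgeR adjusted p = 0.00391; 0.184 without Control 2). Plasmacytoid dendritic cells held no Tbxas1 UMI, at least 5.97-fold below classical monocytes.

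Hpgds, the haematopoietic prostaglandin D synthase (chr6:65117293-65144908), was rare, with 311 UMIs in all. Its highest mean was in C1q macrophages (27.8 and 54.9 CPM). In pooled Control counts that was 59.1 times the level in classical monocytes, which rested on 1 Control UMI (exact 95% interval 9.09 to 2487). The fit over all classes gave log2 4.71 ± 0.87 (edgeR adjusted p = 8.50e-05). B cells carried 6.06, 7.91, 9.78 and 8.69 CPM against 5.43, 4.56, 2.64 and 3.12 CPM in T cells. B cells were higher in 4 of 4 libraries (log2 1.22 ± 0.25, edgeR adjusted p = 0.000302), in a contrast that called 58.6% of 11110 genes. Plasmacytoid dendritic cells were also above classical monocytes (log2 2.79 ± 1.08, edgeR adjusted p = 0.0490, 25.5% of genes called), but on only 6 Hpgds UMIs, and the call was lost without KO 2 (edgeR adjusted p = 0.291).

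The leukotriene pair had 1 shared and 1 separate source. Alox5 encodes 5-lipoxygenase (chr6:116410077-116461178), the first enzyme of leukotriene synthesis, and neutrophils held 80 of its 137 UMIs (58.4%). Its neutrophil level was 78.0, 83.9, 68.5 and 220 CPM, against 4.81, 2.78, 3.93 and 4.58 CPM in classical monocytes. Neutrophils were higher in 4 of 4 libraries, by 4.84 ± 0.44 on the log2 scale (edgeR adjusted p = 8.97e-07). Patrolling monocytes, at a mean of 29.5 CPM on 8 UMIs, lay above classical monocytes in 3 of 3 libraries. They did not pass (log2 2.68 ± 0.91, edgeR adjusted p = 0.0594). C1q macrophages were also above classical monocytes (log2 3.18 ± 0.85, edgeR adjusted p = 0.00948), on 11 Alox5 UMIs, and lost the call without either Control library (edgeR adjusted p = 0.0627 and 0.224).

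Alox5ap encodes FLAP (chr5:149264767-149288153), which presents arachidonic acid to 5-lipoxygenase, and it was shared across myeloid cells. It stood at 897, 1003, 1080 and 1169 CPM in neutrophils and at 1054, 934, 986 and 1175 CPM in classical monocytes, and the 2 classes overlapped (log2 difference 0.12 ± 0.19, edgeR adjusted p = 0.637). Lower levels than in classical monocytes were found in patrolling monocytes (log2 -1.41 ± 0.26, edgeR adjusted p = 0.000103, 7.07% of genes called), C1q macrophages (log2 -1.56 ± 0.28, edgeR adjusted p = 5.40e-05) and plasmacytoid dendritic cells (log2 -1.24 ± 0.23, edgeR adjusted p = 2.34e-05). In type 2 conventional dendritic cells the difference was -0.86 ± 0.27 (edgeR adjusted p = 0.0356, 6.54% of genes called), and it did not pass with relative log expression size factors (edgeR adjusted p = 0.202) or without Control 1, Control 2 or KO 1 (edgeR adjusted p = 0.257, 0.0946 and 0.180). B cells were above T cells (8.06 ± 2.80 and 4.95 ± 3.09 CPM, SD, n = 4 libraries; log2 0.87 ± 0.24, edgeR adjusted p = 0.00355), a difference that turned to -0.033 with the doublets kept.

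**Figure D2:**
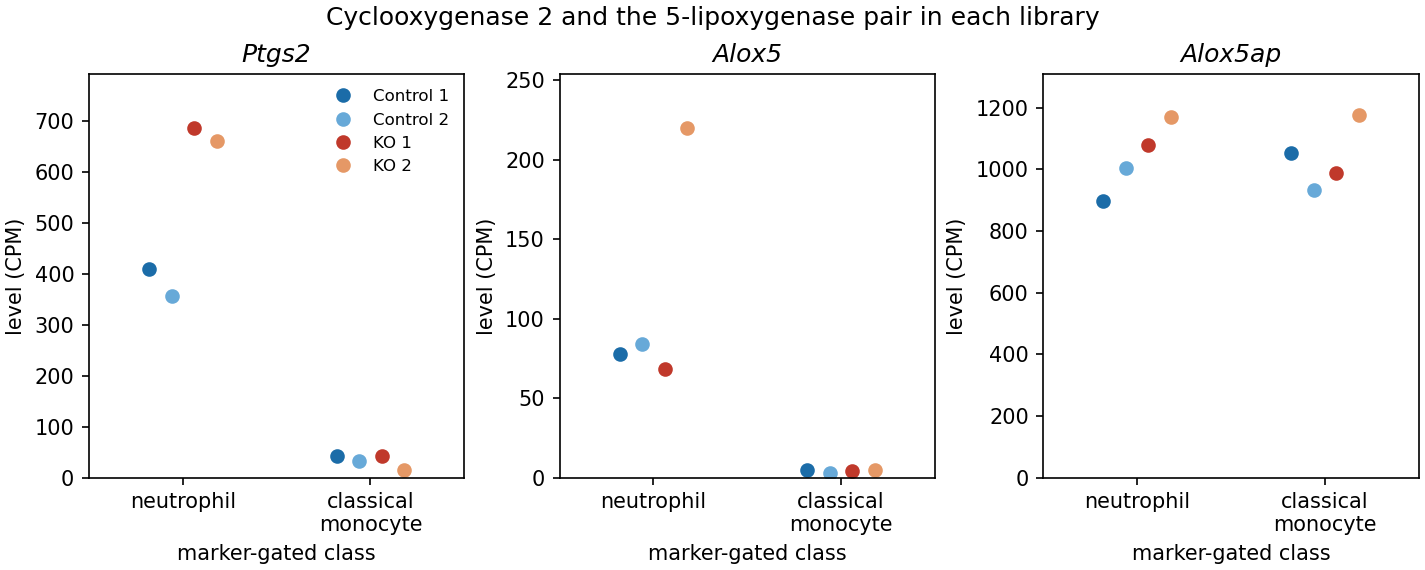
Levels (CPM) of Ptgs2, Alox5 and Alox5ap in neutrophils and classical monocytes, 1 point per library. Ptgs2 and Alox5 points of neutrophils all lie above those of classical monocytes, while Alox5ap lies between 897 and 1175 CPM in both classes.

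The 2 prostaglandin E2 receptors also differed in their cells. Ptger4 encodes EP4 (chr15:5206661-5244187), a receptor that raises cyclic AMP, and was the broadest member, above 10 CPM on average in each of the 12 classes drawn. T cells carried 59.0, 55.2, 62.6 and 56.2 CPM, classical monocytes 79.4, 80.5, 76.0 and 84.1 CPM, and B cells 28.8, 33.5, 39.8 and 29.9 CPM. Its highest mean was 192 ± 13.7 CPM in migratory dendritic cells (SD, n = 2 Control libraries, 24 UMIs), and its lowest among the 12 classes drawn 12.3 ± 2.15 CPM in stromal cells. B cells were below T cells (log2 -0.81 ± 0.10, edgeR adjusted p = 3.62e-07) and neutrophils below classical monocytes (log2 -1.49 ± 0.36, edgeR adjusted p = 0.00435), each in 4 of 4 libraries. Natural killer or innate lymphoid cells (66.0 ± 17.2 CPM, SD) and T cells (58.3 ± 3.33 CPM) did not pass against each other (log2 0.0090 ± 0.12, edgeR adjusted p = 0.976, 26.4% of genes called). That value averages opposite directions. The former held 49.1, 53.4, 83.5 and 77.9 CPM, below T cells in both Control libraries and above them in both KO libraries.

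Ptger2 encodes EP2 (chr14:44988195-45003820), the other receptor that raises cyclic AMP, and had 190 UMIs in all, 95 of them in T cells. Its mean was 24.4 ± 17.1 CPM in neutrophils on 17 UMIs, 5.25 ± 2.20 CPM in natural killer or innate lymphoid cells and 3.23 ± 0.53 CPM in T cells (SD, n = 4). B cells held 4 Ptger2 UMIs and lay below T cells (log2 -3.39 ± 0.59, edgeR adjusted p = 4.67e-05, lower in 4 of 4 libraries).

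Hpgd (chr8:56294585-56321043) was found in stromal cells, monocytes, type 2 dendritic cells, C1q macrophages (37.0 and 48.8 CPM in Control) and the few hepatocytes (85.3 CPM in KO 1, on 3 UMIs). With the libraries under 20 cells included, hepatocytes held 0 Hpgd UMIs in 14 Control cells and 14 in 47 KO cells (212 CPM pooled). With Control set at 3 UMIs, KO hepatocytes were 0.96 times Control, so this depth shows no difference. Stromal or mesothelial cells held 551 of the 980 Hpgd UMIs (56.2%), at 302 and 167 CPM in Control 1 and 2, and classical monocytes held 256 (26.1%). Stromal cells were above classical monocytes by 2.11 ± 0.24 on the log2 scale (edgeR adjusted p = 5.23e-11). The KO classical monocytes, where Hpgd was higher, also enter that fit. In the Control libraries alone the Hpgd means were 235 CPM in stromal cells and 41.0 CPM in classical monocytes. Stromal cells were below classical monocytes for Ptger4 (log2 -2.76 ± 0.27, edgeR adjusted p = 1.46e-13) and Alox5ap (log2 -8.84 ± 0.46, edgeR adjusted p = 9.31e-25). They held 1 Tbxas1 UMI and no Alox5 UMI. Patrolling monocytes (74.2, 86.5 and 193 CPM in Control 1, Control 2 and KO 1) and type 2 conventional dendritic cells (46.3 and 69.3 CPM in Control) did not pass against classical monocytes (log2 0.48 ± 0.39, edgeR adjusted p = 0.576, and 0.35 ± 0.43, edgeR adjusted p = 0.777). Neutrophils held 0 Hpgd UMIs in all 4 libraries over 466 cells. Set at 3 UMIs over the class, that was at least 24.1-fold below the pooled 87.8 CPM of classical monocytes (edgeR adjusted p = 5.72e-05). Plasmacytoid dendritic cells (133 cells) also held 0, at least 16.1-fold lower.

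The source of Hpgd transcripts therefore differed between libraries. Of all Hpgd UMIs in kept cells, 84.9% and 62.1% were stromal in Control 1 and 2, while 77.5% and 75.5% lay in classical monocytes in KO 1 and 2, where no stromal cell was kept. Summed over all kept cells, Hpgd stood at 60.6, 13.5, 7.78 and 8.91 CPM in Control 1, Control 2, KO 1 and KO 2, and Ptgs1 at 29.2, 14.5, 0.97 and 1.11 CPM. In such whole-library sums fewer cells of a type and less RNA per cell cannot be told apart.

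Between the groups, Hpgd in classical monocytes had the widest gap among the members fitted. Its 21, 34, 93 and 108 UMIs gave 50.5, 31.5, 122 and 165 CPM in Control 1, Control 2, KO 1 and KO 2, so both KO libraries lay above both Control libraries. The log2 difference, KO minus Control, was 1.79 ± 0.28 (SE). In this contrast 0.282% of 6385 genes were called (2 higher and 16 lower), and of the 5 members with enough counts to enter it Hpgd was the 1 counted there. The set was chosen with this contrast known, so this is no test of Hpgd and nothing is read from the count, which did not hold Hpgd with DESeq2, a gate of at least 3 markers or without KO 1. The log2 difference of Hpgd ranged from 1.35 to 2.08 when 1 library was left out.

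Per cell, 14 of 202 (6.93%, exact binomial 95% interval 3.84 to 11.4%) and 18 of 233 (7.73%, 4.64 to 11.9%) classical monocytes of Control 1 and 2 held an Hpgd UMI, against 37 of 204 (18.1%, 13.1 to 24.1%) and 32 of 117 (27.4%, 19.5 to 36.4%) of KO 1 and 2. The KO cells were deeper on the whole, with medians of 1852, 3580, 3447 and 5659 UMIs in the same order. After thinning to 1000 UMIs per cell, which left out 41, 20, 19 and 8 cells, the shares were 4.97%, 1.41%, 7.03% and 9.17%, and after thinning to 500 UMIs, with every cell in, 0.99%, 2.15%, 3.92% and 3.42%. The intervals cover counting error within a library and do not compare the groups. For comparison, T cells held an Hpgd UMI in 0.24%, 0.10%, 0.04% and 0.09% of cells at medians of 1449.5, 2817, 2600 and 3705.5 UMIs. The highest count in 1 cell was 12 UMIs in each KO library.

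Related classes and clusters gave values on the same side, but they come from the same 4 libraries and are not independent. Of patrolling monocytes 50.65% and of type 2 dendritic cells 66.67% held only the 2 markers that the gate needs. Patrolling monocytes held 5, 17, 8 and 6 Hpgd UMIs (74.2, 86.5, 193 and 204 CPM), the last from 8 cells. Pooled over libraries, KO was 2.37 times Control (exact 95% interval 1.12 to 4.84, counting error only). In type 2 dendritic cells the ratio was 3.50 (1.65 to 7.11), on 13 KO cells; with doublets kept the levels were 43.5, 83.4, 142 and 218 CPM. Among cell clusters, chosen after seeing the data, the one led by Lyz2, Chil3 and Wfdc17 held 48.4, 48.4, 126 and 180 CPM, and the one led by Cd209a and Cst3 27.8, 39.7, 119 and 110 CPM. In each of these 2 clusters both KO libraries lay above both Control libraries. Of the gated cells of the Lyz2 cluster 94.4% were classical monocytes, so it largely counts the same cells again.

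Other cell markers inside the classical monocytes moved as follows. The 7 C1q macrophage markers summed to 257 and 210 CPM in Control and 5.24 and 1.53 CPM in KO, with 3, 4, 3 and 1 of 7 detected. The 6 stromal markers summed to 24.1 and 4.63 CPM in Control and to 0 in both KO libraries, and the 5 type 2 dendritic markers to 79.4, 68.5, 81.2 and 110 CPM. The 7 neutrophil markers summed to 866, 5119, 5010 and 4320 CPM, and neutrophils held no Hpgd. Of these 4 lists, the C1q and stromal lists were lower in both KO libraries than in both Control libraries, the type 2 dendritic list was higher in both, as Hpgd was, and the neutrophil list overlapped. Type 2 dendritic cells carry Hpgd, and the part of these cells in the difference was not tested.

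**Figure D3:**
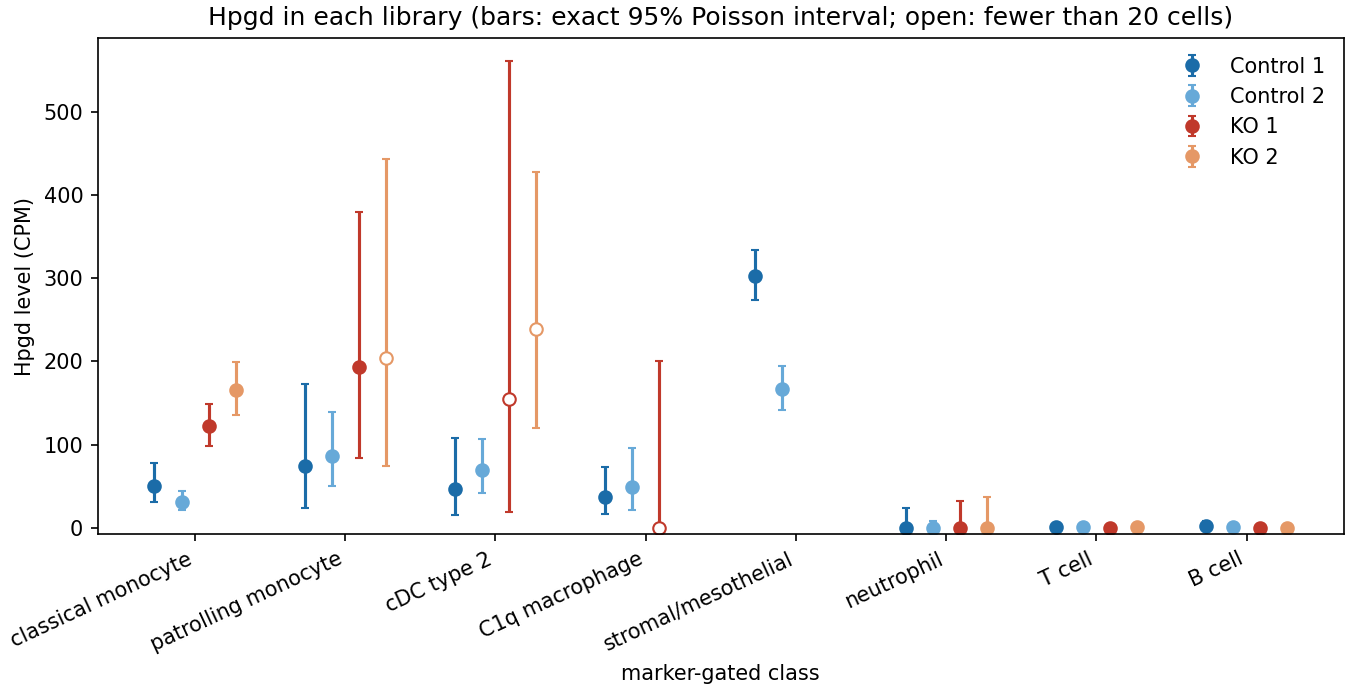
Hpgd level (CPM) per library and class, with exact 95% Poisson intervals; open points rest on 5 to 19 cells. In classical monocytes the Control libraries sit at 50.5 and 31.5 CPM and the KO libraries at 122 and 165 CPM, and neutrophils are at 0 in all 4 libraries.

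The other members tested in classical monocytes differed little. Alox5ap (log2 0.0048 ± 0.20), Tbxas1 (0.010 ± 0.34), Ptger4 (-0.11 ± 0.24) and Ptgs2 (-0.37 ± 0.41) all had overlapping libraries. Ptgs1 had 18 UMIs in Control and 2 in KO, too few for the fit. Pooled over libraries it was 8.53 times higher in Control (exact 95% interval 2.04 to 75.8), beside the C1q markers above.

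In neutrophils Ptgs2 was higher in both KO libraries than in both Control libraries, with the 4 values given above and a log2 difference of 0.73 ± 0.24. It was not called, in a contrast with 4.23% of 1846 genes called; with clusters in place of the gate the difference was 0.37. A Ptgs2 UMI was held by 25.2%, 24.2%, 35.1% and 35.3% of neutrophils, and after thinning to 1000 UMIs by 27.3%, 16.1%, 27.7% and 31.7%. Alox5 (log2 0.67 ± 0.49) rested on KO 2, and without it the value was -0.32. Alox5ap differed by 0.14 ± 0.24, with libraries that did not overlap. Control 1 neutrophils carried 579 CPM of C1q markers against 8.83, 0 and 0 CPM in Control 2, KO 1 and KO 2, and the Ptgs1 values were 52.0, 19.9, 8.57 and 0 CPM. The part of those markers in the Ptgs1 values was not tested.

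Of the 10 members, only 4 had enough counts for the fit in T cells, 1 in natural killer or innate lymphoid cells and 3 in B cells. None of these was called, with 0.927% of 11431 genes called in T cells, 1.64% of 7732 in natural killer or innate lymphoid cells and 0.568% of 9858 in B cells. On so few members nothing is read from that. Ptger4 hardly differed in T cells (log2 0.023 ± 0.13) or B cells (-0.0086 ± 0.21), and in natural killer or innate lymphoid cells it stood at 49.1, 53.4, 83.5 and 77.9 CPM (log2 0.47 ± 0.24), without overlap. Ptger2 in T cells overlapped (log2 -0.11 ± 0.38). Hpgds in T cells was lower in both KO libraries (log2 -0.80 ± 0.34), and in B cells both KO values lay above both Control values (log2 0.17 ± 0.33).

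Alox5ap in lymphocytes was low and lay lower in both KO libraries. T cells held 8.69, 6.26, 2.78 and 2.08 CPM (log2 -1.60 ± 0.34) and B cells 10.6, 10.4, 5.74 and 5.55 CPM (log2 -0.9995 ± 0.33). With doublets kept the T cell difference was -0.73, and with clusters in place of the gate -0.58. The 7 neutrophil markers, from cells rich in Alox5ap, summed to 132, 563, 47.6 and 38.9 CPM in these T cells and 317, 207, 39.3 and 15.7 CPM in these B cells; their part in the difference was not tested.

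**Figure D4:**
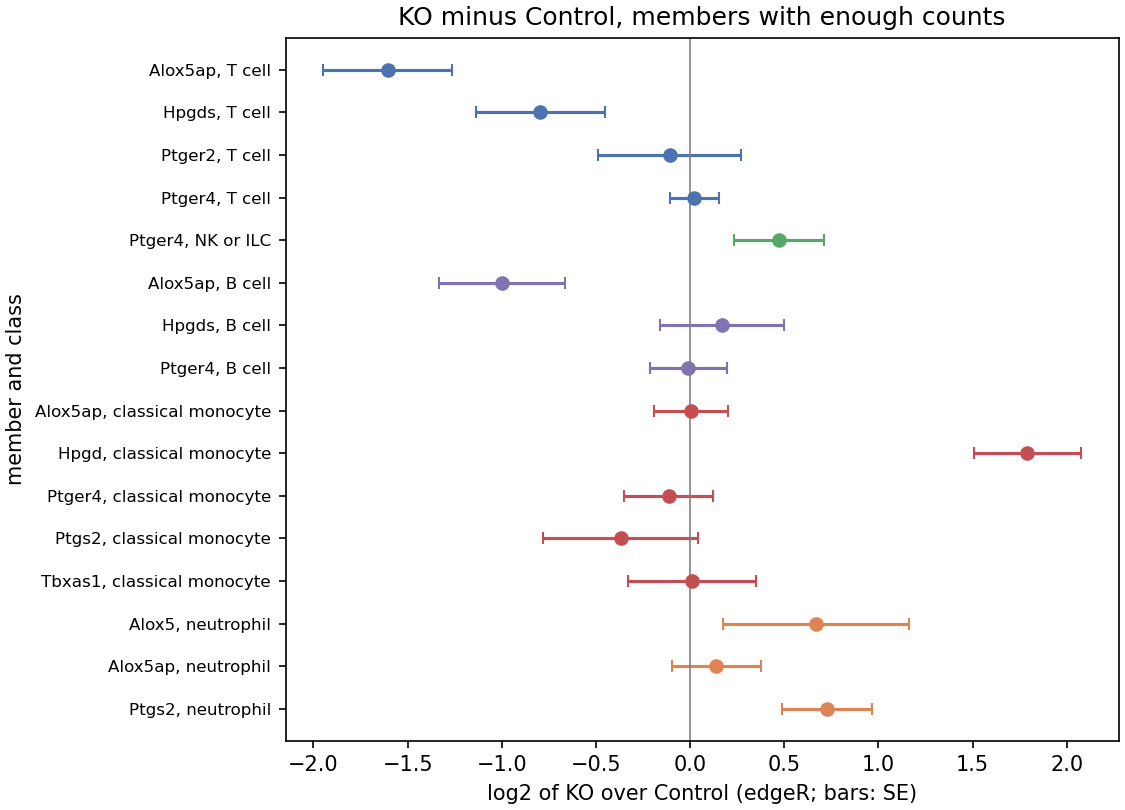
Log2 of KO over Control with its SE for each member and class with enough counts (edgeR, 2 libraries per group). Hpgd in classical monocytes stands at 1.79 and Alox5ap in T cells at -1.60, and 10 of the 16 values lie within 0.5 of zero.

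Type 2 conventional dendritic cells gave a high Ptgs2 value in KO on few cells. They held 3, 8, 15 and 8 Ptgs2 UMIs, which made 27.8, 27.7, 1164 and 174 CPM, from 55, 61, 5 and 8 cells. All 15 UMIs of KO 1 lay in 1 cell and 7 of the 8 in KO 2 in another. With doublets kept, on 13 and 14 KO cells, the KO values were 266 and 124 CPM against 26.1 and 25.7 CPM in Control. No fit was made for this class, whose KO libraries fell under the minimum of 20 cells.

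The rest of the eicosanoid pathway was read from a list of 43 other genes. Like the members, the list was chosen with earlier results of these data known. Its calls and p-values are therefore a description and not an independent test. Between KO and Control, 23 of them could be tested in T cells, 10 in natural killer or innate lymphoid cells, 18 in B cells, 14 in classical monocytes and 5 in neutrophils, and none was called higher in any of these classes. Over all genes, 34 of 11431, 54 of 7732, 14 of 9858, 2 of 6385 and 7 of 1846 were called higher. In the same order 72, 73, 42, 16 and 71 were called lower. Beside such small shares nothing is read from the lack of higher calls. The list's median log2 difference was -0.11, -0.061, -0.046, -0.069 and 0.36 in that order, against -0.0041, -0.0061, 0.0030, -0.0060 and -0.012 over all genes tested.

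One gene, Ptges3, was called lower in each lymphocyte class. It encodes the cytosolic prostaglandin E synthase, also known as p23, a partner of the chaperone Hsp90 (chr10:128058954-128077272). Its level fell in T cells (298, 227, 156 and 129 CPM; log2 -0.90 ± 0.16, edgeR adjusted p = 0.0345), in natural killer or innate lymphoid cells (255, 215, 166 and 146 CPM; log2 -0.73 ± 0.18, edgeR adjusted p = 0.0168) and in B cells (341, 255, 189 and 152 CPM; log2 -0.88 ± 0.16, edgeR adjusted p = 0.0231). Both KO libraries were below both Control libraries there and in classical monocytes (166, 155, 115 and 113 CPM; log2 -0.59 ± 0.21, edgeR adjusted p = 0.367) and neutrophils (176, 94.95, 51.4 and 29.96 CPM; log2 -1.68 ± 0.53, edgeR adjusted p = 0.120), which did not pass. The classes share the same 4 libraries and are not independent. The call was lost in T cells without KO 1 or KO 2 (edgeR adjusted p = 0.0565 and 0.333), in natural killer or innate lymphoid cells without Control 1, KO 1 or KO 2 (0.0951, 0.0551 and 0.416) and in B cells without Control 1, Control 2 or KO 2 (0.177, 0.136 and 0.116). It was also lost in natural killer or innate lymphoid cells with DESeq2 (DESeq2 adjusted p = 0.418) and with a gate of at least 3 markers (edgeR adjusted p = 0.169), and with clusters in place of the gate in T cells (edgeR adjusted p = 0.0791).

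Ltc4s, leukotriene C4 synthase (chr11:50236461-50238616), was called lower in classical monocytes on few counts. Its UMIs were 8, 33, 3 and 1, or 19.2, 30.5, 3.93 and 1.53 CPM (log2 -3.26 ± 0.62, edgeR adjusted p = 0.0428). The call was lost with DESeq2 (DESeq2 adjusted p = 0.9998), relative log expression size factors (edgeR adjusted p = 0.0556), doublets kept (edgeR adjusted p = 0.297), the replicate number as a block (edgeR adjusted p = 0.0597) and without KO 1 or KO 2 (edgeR adjusted p = 0.265 and 0.0592). With a gate of at least 3 markers, with clusters in place of the gate and without Control 2, Ltc4s was not among the genes tested. Ltc4s is a C1q macrophage transcript here, at 333 and 323 CPM in Control, and the C1q markers summed to 257 and 210 CPM in Control classical monocytes and 5.24 and 1.53 CPM in KO; their part in the difference was not tested. In neutrophils the gene with the next smallest p after Ptges3 was Ggt5, which acts on leukotriene C4 (26.0, 28.7, 103 and 79.9 CPM; log2 1.59 ± 0.51, edgeR adjusted p = 0.130).

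**Figure D5:**
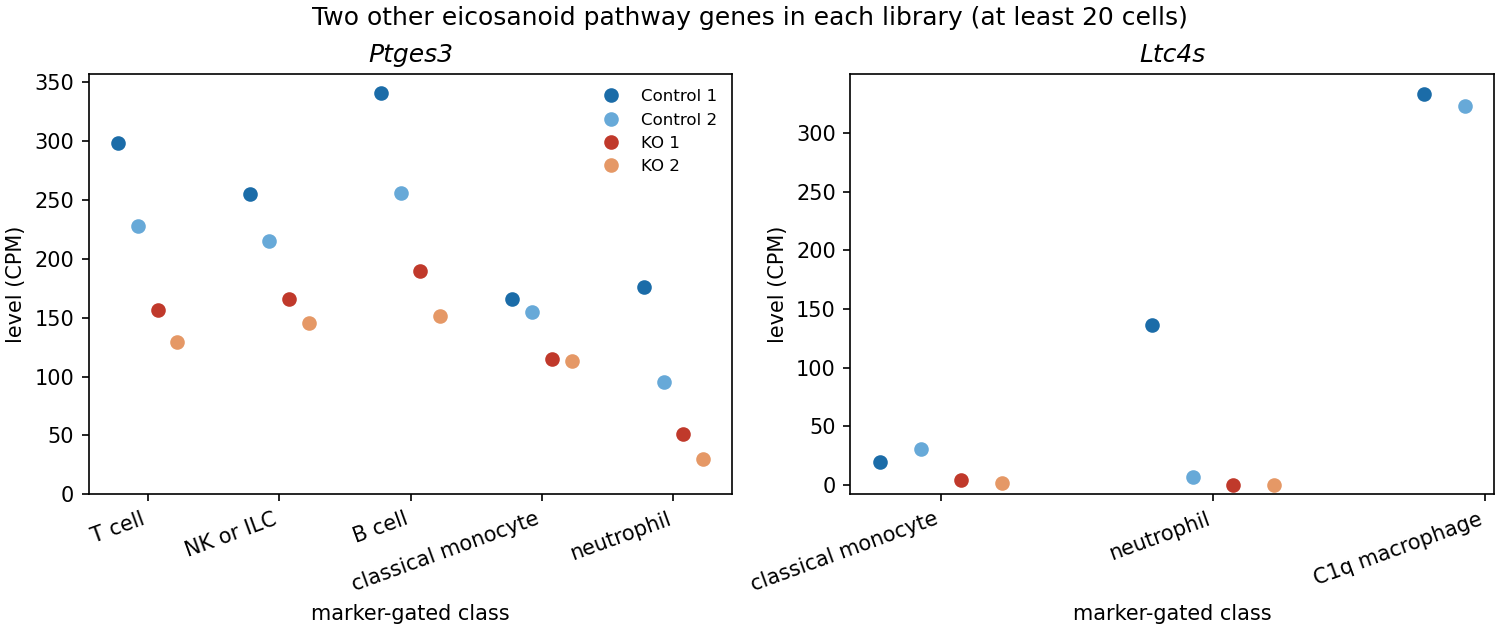
Levels (CPM) of Ptges3 in 5 classes and of Ltc4s in 3 classes, 1 point per library with at least 20 cells of the class. Ptges3 is lower in both KO libraries in all 5 classes drawn, and Ltc4s stands at 333 and 323 CPM in C1q macrophages of the Control libraries.

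Across classes, the pathway genes called are given beside the share of all genes called in the same contrast. Neutrophils were above classical monocytes for 5 of 11 genes tested and below for 3. Over all 5807 genes 41.2% were called, 1138 higher and 1253 lower. The 5 were Ggt5, Mgst2, Cyp4f18, Lta4h and the leukotriene B4 receptor Ltb4r1 (log2 4.78, 3.34, 1.30, 1.04 and 0.95), and the 3 were Mgst3, Ptgir and Akr1b3. In a contrast that called 2545 of 9573 genes higher and 2433 lower (52%), stromal cells were above classical monocytes for 9 of 23 pathway genes. These were Ptgis, prostacyclin synthase (804 and 1115 CPM, edgeR adjusted p = 5.57e-27), the receptors Ptger3 and Tbxa2r, and Zadh2, Cbr1, Ptgr2, Pla2g4a, Akr1b3 and Alox15. They were below for 4: Abcc4, Cyp4f18, Ltb4r1 and Cysltr1. C1q macrophages were above for Ltc4s (log2 3.46 ± 0.44, edgeR adjusted p = 2.76e-08), Pla2g15 and Alox15, the last in 1 of 2 libraries, and below for Ltb4r1. Over all genes that contrast called 401 of 9573 higher and 370 lower.

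Plasmacytoid dendritic cells were above classical monocytes for the thromboxane receptor Tbxa2r and Abcc1 and below for Pla2g4a, Abcc4, Ltc4s, Cyp4f18, Ltb4r1 and Cysltr1. Over all genes that contrast called 992 of 9573 higher and 1445 lower. Type 2 dendritic cells were below for Cyp4f18 alone among 23 tested, and patrolling monocytes passed for none, beside 6.54% and 7.07% of all genes called. B cells differed from T cells for 13 of 22 genes, beside 58.6% of all genes. They exceeded T cells for Cyp4f18 (89.0 ± 15.4 against 1.06 ± 0.42 CPM, SD, n = 4; log2 6.42 ± 0.18), Pla2g15 and Ptges3. They were below T cells for 10 genes, namely Pla2g6, Akr1b3, Cbr1, Tbxa2r, Lta4h, Mgst2, Ggt1, Ggt5, Ltb4r1 and the cysteinyl leukotriene receptor Cysltr2 (log2 -5.02 ± 0.28). Natural killer or innate lymphoid cells exceeded T cells for Cysltr2 and Lta4h and were below for Akr1b3, Cbr1, Tbxa2r, Mgst2 and Ggt1. Over all genes that contrast called 1319 of 9866 higher and 1281 lower.

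The genes whose levels were most like those of 2 members were named by Pearson's r of log2(CPM + 10) over 39 class and library pairs of 14 classes, which share libraries and depth. Hpgd was most like Nupr1 (r = 0.86), Rras (0.86), Nfix (0.84) and Cd302 (0.83), which are 4 of the 5 genes most like it. In classical monocytes these 4 genes differed between KO and Control by 0.0085, -0.083, 0.56 and -0.34 on the log2 scale, with standard errors of 0.20 to 0.26, and none of them was called, where Hpgd differed by 1.79. Alox5ap was most like Mpeg1 (r = 0.96), Cd300a (0.95), I830077J02Rik (0.94), Cd300c2 (0.92) and Nfam1 (0.90).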

How the data were processed

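Droplet single-cell libraries of 4 mouse liver samples were analysed. The deposited matrices hold raw UMI counts, which the authors made with Cell Ranger 3.1.0 on mm10, as stated per the submitters' processing notes. Cells under 500 UMIs, under 250 genes or over 25% mitochondrial UMIs were dropped. Scrublet by its own cutoff called 0, 0, 1 and 84 doublets in Control 1, Control 2, KO 1 and KO 2, so its highest scores were removed in every library at 0.8% per 1000 barcodes (183, 411, 415 and 218 cells). A cell joined the class with the largest share of its markers detected, with at least 2 markers and no tie, and 25.1%, 15.1%, 16.0% and 9.66% of cells joined none.

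Counts were summed per library and class and tested with edgeR 4.0.16 (TMM, filterByExpr, quasi-likelihood, Benjamini-Hochberg adjusted p below 0.05 over all genes). KO was compared with Control in the 5 classes with at least 20 cells in every library, and classes were compared with library as a block. The 10 members, the 43 other pathway genes, the motifs and the marker lists were chosen with earlier results of these data known. Named were the members, every pathway gene that passed a test or else the 2 with the smallest p, and for Hpgd and Alox5ap the 5 genes most like each, of which 1 for Hpgd is not reported here.

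Intervals and limits for 0 (3 counts) cover counting error only. With 2 libraries per group, libraries that do not overlap are a description, and the share of all genes that did not overlap is not given. Of the gene identifiers, 99.6% matched GENCODE M21 (GRCm38), the source of coordinates. Python 3.11.15, scanpy 1.11.5, R 4.3.3 and DESeq2 1.42.0 were used. Replicate libraries were not duplicates (chi-square per degree of freedom 40.5 for Control and 19.1 for KO). The alternatives were DESeq2, other size factors, no filter, a replicate block, other cell filters, doublets kept, a stricter gate, clusters in place of the gate, thinning to 500 UMIs and leaving out each library. The fit over all classes and the clusters by number were added after the data were seen.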

Additional observations from a re-analysis of the deposited data

Results flagged for a closer look

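Hpgds, the haematopoietic prostaglandin D synthase, had values of opposite sign in T and B cells, neither of which passed in the fit. Both KO libraries lay below both Control libraries in T cells (log2 KO minus Control -0.80 ± 0.34, SE) and above both in B cells (log2 0.17 ± 0.33). Control 1 held only 4 Hpgds UMIs in B cells. The share of all genes whose libraries separate in this way is not given, so nothing is read from the opposite signs. The difference between the classes was not tested.

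Alox5ap, which encodes FLAP, lay lower in both KO libraries than in both Control libraries in T cells (log2 -1.60 ± 0.34, SE) and B cells (log2 -0.9995 ± 0.33), and higher in both in neutrophils (log2 0.14 ± 0.24). None of these values was called. The difference between the classes was not tested, and all of these classes come from the same 4 libraries.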

How the results depend on the processing

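Called genes between KO and Control moved over 1.5 times under many settings, and the cause was not tested. In T cells (106 genes) they were 605 with no filter on low counts, 5 with clusters in place of the gate, and 24 to 1126 when 1 library was left out. In natural killer or innate lymphoid cells (127) they were 32 with DESeq2, 37 with a gate of at least 3 markers and 62 to 156 with 1 library left out. In B cells (56) they were 23 with DESeq2, 215 with no filter, 101 with doublets kept and 8 to 150 with 1 library left out. In classical monocytes (18) they were 6 with DESeq2, 95 with no filter, 7 with doublets kept, 6 with the stricter gate and 9 to 98 with 1 library left out. In neutrophils (78) they were 38 with DESeq2, 130 with no filter, 6 with doublets kept, 6 with the stricter gate, 7 with clusters and 29 to 154 with 1 library left out; their median log2 difference over all genes was -0.64 with no filter and -0.22 with DESeq2.

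The other pathway genes called in T cells (1) were 2 with no filter, 2 with at least 1000 UMIs per cell, 2 with the stricter gate, 0 with clusters and 0 to 3 with 1 library left out. In natural killer or innate lymphoid cells (1) they were 0 with DESeq2, 0 with the stricter gate and 0 to 1 with 1 library left out, and in B cells (1) 0 to 1. In classical monocytes (1) they were 0 with DESeq2, relative log expression size factors, doublets kept, the stricter gate or clusters, and 0 to 1 with 1 library left out. In neutrophils (0) there was 1 with no filter and 0 to 2 with 1 library left out.

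With the replicate block 744, 2.0e+02, 440 and 28 genes were called in T, natural killer or innate lymphoid, B cells and neutrophils, and 2 and 0 other pathway genes in T cells and classical monocytes. Deviations of same-numbered libraries correlated at 0.22, 0.090, 0.14, 0.13 and -0.060 in T, natural killer or innate lymphoid, B cells, classical monocytes and neutrophils. The labels give these libraries only a shared number, and whether they also share a batch was not tested.

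Between classes, neutrophils against classical monocytes (2391 genes) gave 1570 to 2438 with 1 library left out, the lowest without Control 2. Natural killer or innate lymphoid cells against T cells (2600) gave 1661 with DESeq2 and 1649 without the library block. Alox5ap in B against T cells turned to -0.033 with doublets kept and did not pass without the library block (edgeR adjusted p = 0.193). With a pseudocount of 1 CPM, 2 of the 5 genes most like Hpgd were shared. Separate fits of patrolling monocytes and type 2 dendritic cells against classical monocytes were not run, because too few KO cells were kept. Low counts limit Ptges, Hpgds and Ptger2, with 126, 311 and 190 UMIs in all. Thinning to 500 in place of 1000 UMIs per cell moved 10 of 16 shares of cells with a UMI.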
